A study of Mus musculus with 6 samples.

Results

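The 10 genes described here are the transcription factor NRF2 (*Nfe2l2*), 7 genes known as its targets or as enzymes of the glutathione and thioredoxin systems (*Hmox1*, *Nqo1*, *Gclc*, *Gclm*, *Gsr*, *Txnrd1* and *Srxn1*) and both enzymes of transsulfuration (*Cth* and *Cbs*). They were chosen by symbol from the 30281 gene symbols of the deposited table, for their known roles but with earlier results of these data known. TPM (an abundance scaled for transcript length and library total) and estimated counts were summed over the transcripts that share a symbol. All 10 had a row in each of the 6 mouse RNA-Seq libraries. 9 of them had at least 10 TPM in at least 1 library and 8 had at least 10 TPM in all 6. *Cbs* stayed under 1 TPM in every library.

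The study asked how loss of *Tsc2*, which restrains the growth kinase complex mTORC1, changes RNA levels in cells that model lymphangioleiomyomatosis. Mouse embryo fibroblasts (MEFs) were of the genotypes *Tsc2*-/- p53-/- and *Tsc2*+/+ p53-/-, so both are labelled as lacking p53, with 1 library each and no treatment. MKOC and TJ are lines of kidney epithelial cells labelled Tsc2-null, and TJ cells are labelled as derived from a secondary tumor in C57BL6 mice. Each kidney line gave 1 library without treatment and 1 library after rapamycin, an inhibitor of mTORC1. Cells received 100 nM rapamycin or diluent for 18 hours in DMEM without serum, with bovine serum albumin added. The kidney lines have no *Tsc2*+/+ counterpart, the MEFs received no rapamycin, and each group is 1 cell line or 2, so a group stands for those lines.

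Estimated counts per library lay between 22887020 and 37505004. *Tsc2* RNA was 22.6 TPM in the *Tsc2*+/+ and 10.5 TPM in the *Tsc2*-/- library of the MEFs, and between 19.1 and 49.1 TPM in the 4 kidney libraries labelled Tsc2-null. *Trp53* RNA was 26.3 TPM in *Tsc2*+/+ and 28.5 TPM in *Tsc2*-/- MEFs, although both are labelled p53-/-. RNA of a gene that is labelled as deleted was thus present in the libraries, and transcript totals do not tell which exons the reads covered. Of 10 fibroblast markers, 8 and 9 had at least 1 TPM in the *Tsc2*+/+ and *Tsc2*-/- MEFs and 3 or 4 had it in the kidney libraries, where *Col1a1*, *Col1a2* and *Col3a1* were at most 1.07 TPM. *Vim* did not separate the cell types, with 3609 to 7523 TPM in the kidney libraries against 3522 and 1118 TPM in the *Tsc2*+/+ and *Tsc2*-/- MEFs. Nor did *Fbln2*, with 94.5 to 137 TPM against 63.8 and 344 TPM, or *Dcn*, with 6.73 to 50.3 TPM against 7.08 and 422 TPM. Of 9 kidney epithelial markers, 6 had at least 1 TPM in each kidney library (*Cdh1*, *Krt8*, *Krt18*, *Cldn4*, *Pax8* and *Pax2*), while *Cldn7* was at 0 and *Epcam* at most 0.0268 TPM. *Krt19* went the other way, with 0.393 to 0.800 TPM in the kidney libraries and 55.6 TPM in *Tsc2*-/- MEFs. The *Tsc2*-/- MEF library stood apart in its mesothelial markers, all 6 of which had at least 1 TPM, with a summed level of 478 TPM against 2.66 TPM in *Tsc2*+/+ MEFs and 70.3 to 151 TPM in the kidney libraries. *Msln* alone was an exception, at 60.6 TPM in *Tsc2*-/- MEFs and 69.5 to 150.4 TPM in the kidney libraries, where the 5 others were under 1 TPM.

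NRF2 is held at a low level by KEAP1, which hands it to the proteasome, and oxidants or electrophiles that modify KEAP1 let NRF2 collect in the nucleus, where it pairs with small MAF proteins and binds antioxidant response elements. BACH1 binds similar elements and represses *Hmox1* among other genes. Glutathione, the main soluble thiol of the cell, is built from glutamate, cysteine and glycine. Transsulfuration is a source of cysteine, which it makes from homocysteine, most actively in liver and kidney. In bulk RNA a lower level may come from fewer cells that express a gene or from less RNA per cell, and these cannot be told apart here.

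The genes lie apart on the mouse genome (GRCm38, GENCODE M21). *Nfe2l2* is at chr2:75675513-75704641 (minus strand) and *Srxn1* on the same chromosome at chr2:152105516-152111376 (plus). *Gclm* is at chr3:122245557-122270732 (plus), *Cth* at chr3:157894248-157925077 (minus), *Gclc* at chr9:77754535-77794485 (plus), *Txnrd1* at chr10:82833951-82897712 (plus) and *Cbs* at chr17:31608894-31637238 (minus). Chromosome 8 holds *Gsr* at chr8:33652523-33698163 (plus), *Hmox1* at chr8:75093621-75100589 (plus) and *Nqo1* at chr8:107388225-107403206 (minus). Each estimate covers the exons of the listed transcripts.

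Promoter windows from RefSeq (GRCm38.p6), 250 bases before to 50 bases after a gene's start, were matched by symbol for 6 of the 10 genes, with 8 windows in all. *Hmox1*, *Gclc*, *Gsr* and *Cth* had no window. The 250 bases before the start are printed for the members that changed with rapamycin (*Nfe2l2*, *Nqo1* and *Txnrd1*) and for the pair that did not pass that test (*Gclm* and *Srxn1*), 5′ to 3′ on the gene's strand. Capitals mark letters that match TGACNNNGC, the core of the antioxidant response element, or TGAGNNNGC on either strand.
Nfe2l2, chr2:75704664-75704913, minus strand: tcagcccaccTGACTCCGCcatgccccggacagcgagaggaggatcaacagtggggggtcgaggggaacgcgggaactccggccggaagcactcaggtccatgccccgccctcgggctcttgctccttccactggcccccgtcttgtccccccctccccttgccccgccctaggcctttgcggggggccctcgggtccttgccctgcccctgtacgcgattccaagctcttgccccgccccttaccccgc
Nqo1, chr8:107403206-107403455, minus strand: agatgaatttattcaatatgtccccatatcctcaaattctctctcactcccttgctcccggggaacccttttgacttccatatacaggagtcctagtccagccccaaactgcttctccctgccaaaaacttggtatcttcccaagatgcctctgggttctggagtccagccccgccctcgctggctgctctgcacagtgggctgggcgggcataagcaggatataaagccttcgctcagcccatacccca
Txnrd1, chr10:82858956-82859205, plus strand: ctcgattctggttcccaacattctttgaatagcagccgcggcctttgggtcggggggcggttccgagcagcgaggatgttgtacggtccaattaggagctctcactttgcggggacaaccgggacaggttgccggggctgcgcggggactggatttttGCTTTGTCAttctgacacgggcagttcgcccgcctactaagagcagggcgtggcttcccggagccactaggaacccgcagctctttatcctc
Gclm, chr3:122245307-122245556, plus strand: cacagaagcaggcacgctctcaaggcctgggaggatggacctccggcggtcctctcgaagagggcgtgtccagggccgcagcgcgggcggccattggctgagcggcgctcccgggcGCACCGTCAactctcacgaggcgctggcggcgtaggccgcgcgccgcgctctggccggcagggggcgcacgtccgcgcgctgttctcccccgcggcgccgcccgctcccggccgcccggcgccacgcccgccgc
Srxn1, chr2:152105274-152105523, plus strand: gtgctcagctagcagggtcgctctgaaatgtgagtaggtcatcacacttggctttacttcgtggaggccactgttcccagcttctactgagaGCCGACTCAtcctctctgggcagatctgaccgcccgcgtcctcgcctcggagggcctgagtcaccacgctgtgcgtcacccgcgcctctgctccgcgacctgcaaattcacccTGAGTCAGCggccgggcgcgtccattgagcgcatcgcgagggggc

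TGACNNNGC was found in 4 of the 8 windows, and 12.4% of all 32851 mouse promoter windows held it. *Txnrd1* has 3 windows, and 1 of them, the one printed, held it. In *Nfe2l2* it read TGACTCCGC at bases −240 to −232 from the start. In *Gclm* (GCACCGTCA, −134 to −126) and in *Txnrd1* (GCTTTGTCA, −92 to −84) it lay on the opposite strand. *Srxn1* held it on the opposite strand after the start, at bases 29 to 37 (GCTAGGTCA). TGAGNNNGC, which differs from the other motif in 1 letter, so that a site cannot match both on the same strand, was in the window of *Srxn1* alone among the 6 genes, at −45 to −37 (TGAGTCAGC) and on the opposite strand at −158 to −150 (GCCGACTCA), and in 17.6% of all windows. The windows of *Nqo1* and *Cbs* held neither set of letters. These are matches of letters, not measured binding.

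**Figure D1:**
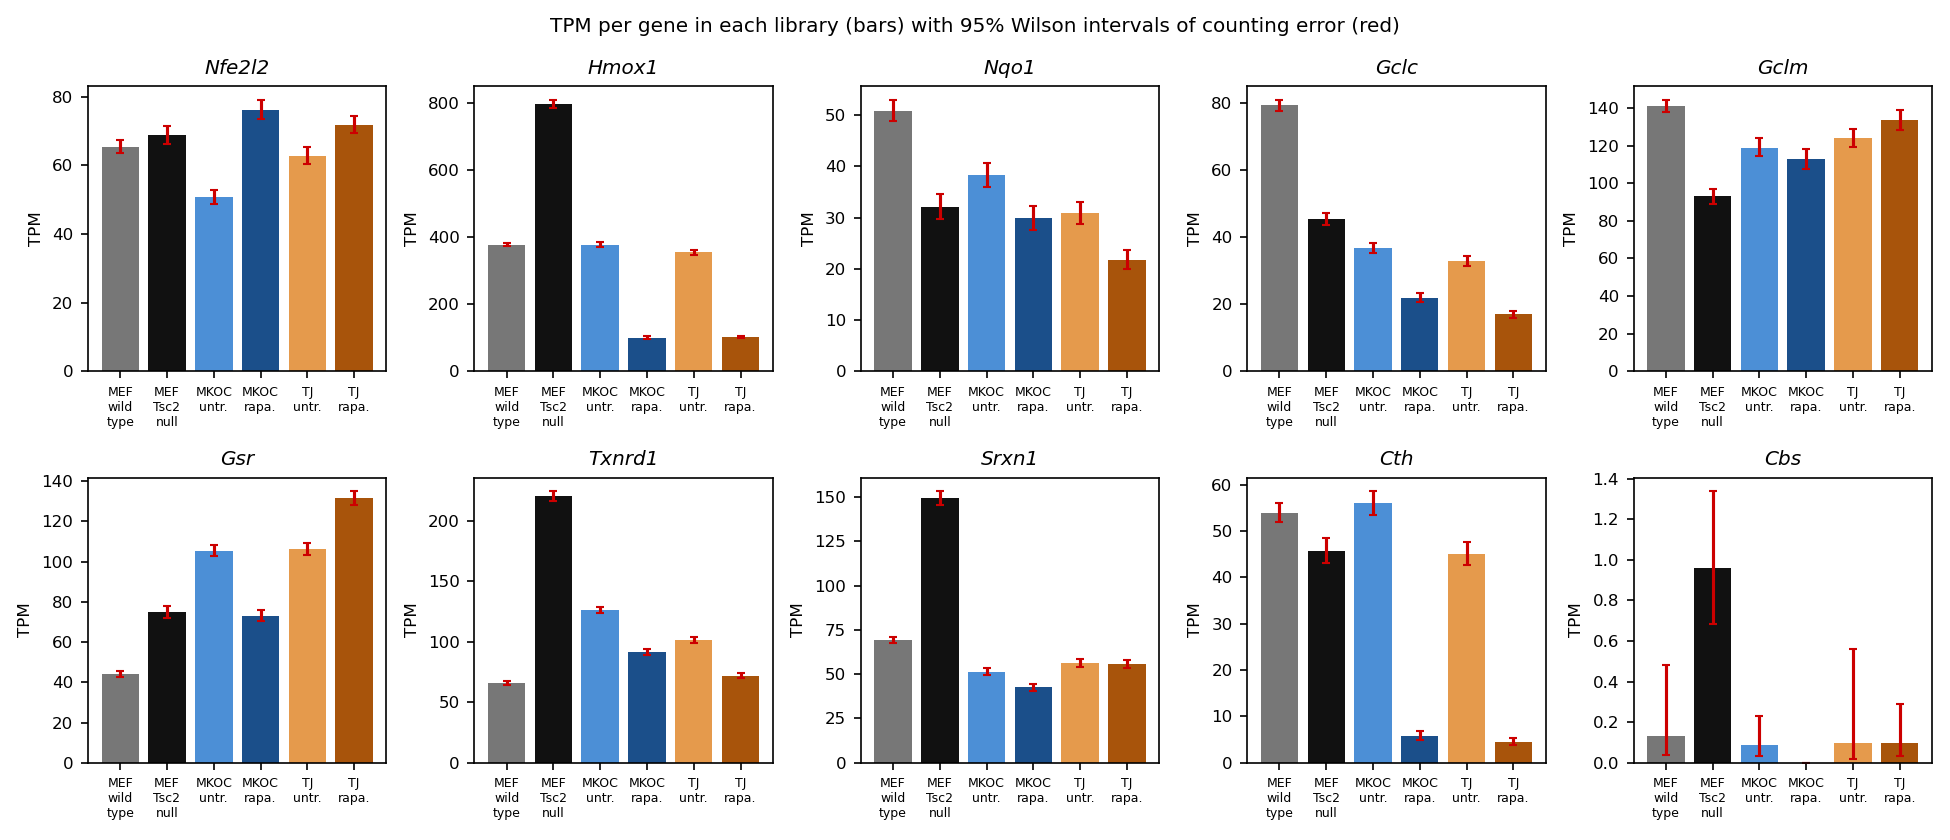
TPM of each of the 10 genes in the 6 libraries (wild type stands for *Tsc2*+/+ and Tsc2 null for *Tsc2*-/- MEFs; untr., untreated; rapa., rapamycin; bars, linear axes that start at 0 and differ between panels), with 95% Wilson intervals of counting error in red. *Cth* stood at 45.1 to 56.0 TPM in the 4 libraries without rapamycin and at 4.46 and 5.77 TPM in both rapamycin libraries, and *Hmox1*, *Txnrd1* and *Srxn1* were highest in *Tsc2*-/- MEFs.

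*Nfe2l2*, the regulator, had 65.3 TPM in *Tsc2*+/+ and 68.8 TPM in *Tsc2*-/- MEFs, 50.6 in untreated and 76.2 in rapamycin-treated MKOC cells, and 62.7 in untreated and 71.8 in rapamycin-treated TJ cells. Its range was narrow, and apart from untreated MKOC cells, which were lowest, each library's 95% counting interval overlapped that of its neighbour in the order of levels. Such intervals cover counting error only.

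*Hmox1* encodes heme oxygenase, which breaks down heme and releases iron. It had 378 TPM in *Tsc2*+/+ MEFs, 799.6 in *Tsc2*-/- MEFs, 378 in untreated MKOC, 100.5 in rapamycin-treated MKOC, 356 in untreated TJ and 102 in rapamycin-treated TJ cells. Both rapamycin libraries were lowest and overlapped each other, *Tsc2*+/+ MEFs and untreated MKOC cells overlapped, and *Tsc2*-/- MEFs were highest. *Nqo1*, a quinone reductase, had 50.9 and 32.1 TPM in *Tsc2*+/+ and *Tsc2*-/- MEFs, 38.3 and 29.9 TPM in untreated and rapamycin-treated MKOC, and 30.8 and 21.8 TPM in untreated and rapamycin-treated TJ cells. *Tsc2*+/+ MEFs were highest and rapamycin-treated TJ cells lowest, and neither overlapped another library.

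*Gclc* and *Gclm* encode the catalytic and the modifier subunit of glutamate-cysteine ligase, which carries out the rate-limiting step of glutathione synthesis. *Gclc* had 79.1 and 45.3 TPM in *Tsc2*+/+ and *Tsc2*-/- MEFs, 36.7 and 21.9 TPM in untreated and rapamycin-treated MKOC, and 32.9 and 16.9 TPM in untreated and rapamycin-treated TJ cells, and no neighbouring intervals overlapped. *Gclm* had 141 and 93.1 TPM in the MEFs in the same order, 119 and 113 TPM in MKOC and 124 and 134 TPM in TJ cells. Only *Tsc2*-/- MEFs, the lowest for *Gclm*, lay apart from their neighbour in the order. *Gclm* thus varied less than *Gclc*, by 0.60 against 2.16 on the log2 (TPM + 1) scale from lowest to highest library.

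*Gsr* encodes glutathione reductase, which returns oxidized glutathione to its reduced form. It had 44.2 TPM in *Tsc2*+/+ MEFs, 74.9 in *Tsc2*-/- MEFs, 105 in untreated and 73.0 in rapamycin-treated MKOC, and 106 in untreated and 132 in rapamycin-treated TJ cells. It was the only one of the 10 genes that was lowest in *Tsc2*+/+ MEFs both as deposited and after scaling the libraries to a common median, since *Txnrd1* was lowest there only as deposited. *Txnrd1*, the thioredoxin reductase of the cytosol, had 65.7 TPM in *Tsc2*+/+ and 221 TPM in *Tsc2*-/- MEFs, 126 and 91.8 TPM in untreated and rapamycin-treated MKOC, and 102 and 72.0 TPM in untreated and rapamycin-treated TJ cells. No neighbouring intervals of *Txnrd1* overlapped, and *Tsc2*-/- MEFs were highest. *Srxn1* encodes sulfiredoxin, which repairs overoxidized peroxiredoxins. It had 69.2 and 149.5 TPM in *Tsc2*+/+ and *Tsc2*-/- MEFs, 51.3 and 42.6 TPM in MKOC and 56.1 and 55.8 TPM in TJ cells, untreated and treated, so all 4 kidney libraries lay below both MEF libraries.

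*Cth* encodes cystathionine gamma-lyase, which releases cysteine in the last step of transsulfuration. In the MEFs it had 53.9 TPM (2685 estimated counts, *Tsc2*+/+) and 45.7 TPM (1133, *Tsc2*-/-), and it had 56.0 TPM from 1804 in untreated MKOC and 45.1 TPM from 1317 in untreated TJ cells. In the rapamycin libraries it had 5.77 TPM from 139 estimated counts (MKOC) and 4.46 TPM from 132 (TJ). Both rapamycin libraries overlapped each other and lay far below the 4 others. Its range of 3.38 on the log2 (TPM + 1) scale was the widest of the 10 genes, and the coding transcript ENSMUST00000118539 took between 97.4% and 100% of its counts in each library. *Cbs*, cystathionine beta-synthase, which carries out the step before, was scarcely present in any of these lines. It had 34 estimated counts (0.958 TPM) in *Tsc2*-/- MEFs and between 0 and 4 in each of the other libraries.

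**Figure D2:**
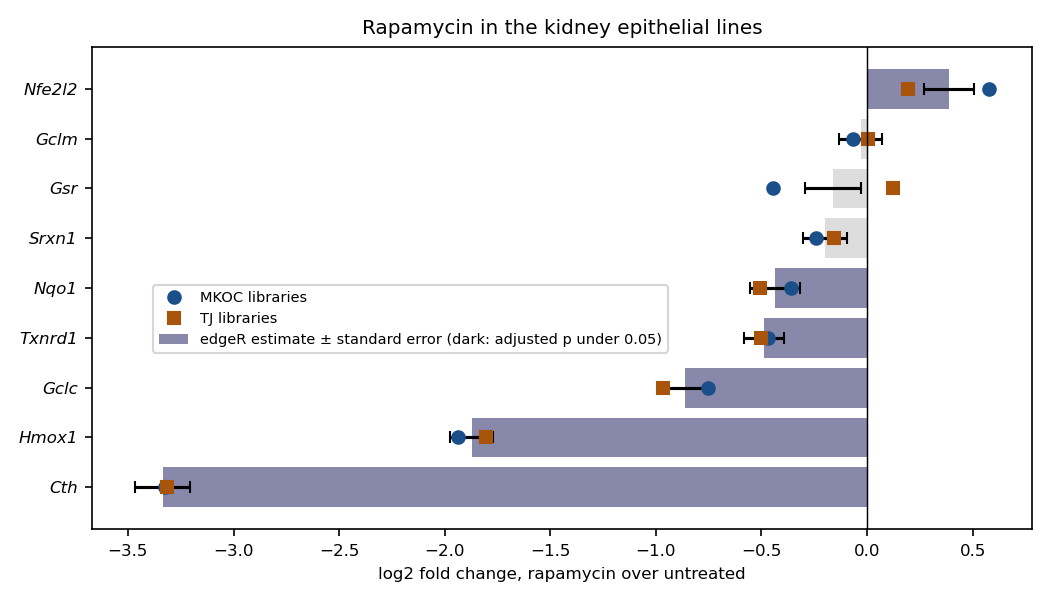
Log2 fold change with rapamycin in the kidney lines for the 9 genes tested. Bars give the edgeR estimate over both lines with its standard error (dark bars: adjusted p under 0.05), circles the MKOC pair of libraries and squares the TJ pair after TMM normalization, and *Cth* and *Hmox1* lie farthest to the left with both lines close together.

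With rapamycin *Cth* was about 10-fold and *Hmox1* 3.66-fold lower in the fit over both kidney lines. *Gclc*, *Txnrd1* and *Nqo1* fell less, while *Nfe2l2* itself rose. Of the 9 genes tested, 5 were lower and 1 was higher by the quasi-likelihood test of edgeR, adjusted after Benjamini and Hochberg over 12952 genes, with the cell line as a covariate. Over all genes tested, 17.4% were lower and 17.5% higher, with a median log2 fold change of 0.02, against −0.44 for the 9 genes. Nothing in the labels says that the libraries came from separate cultures, so the p-values measure only the spread between these 4 libraries.

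The TPM ratio of *Cth*, rapamycin over untreated, was 0.103 (95% counting interval 0.0862 to 0.123) in MKOC and 0.0989 (0.0820 to 0.118) in TJ cells. Its fitted log2 fold change was −3.34 (SE 0.13, edgeR adjusted p = 8.14e-07), 10.1-fold lower, and *Cth* ranked 12 from the most negative of the genes tested. *Hmox1* fell by 1.87 on the log2 scale (SE 0.10, edgeR adjusted p = 4.64e-06), 3.66-fold, and ranked 83 from the lowest. Its TPM ratio was 0.266 (0.254 to 0.278) in MKOC and 0.286 (0.274 to 0.299) in TJ cells.

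*Gclc* fell 1.82-fold (log2 −0.86, SE 0.11, edgeR adjusted p = 0.000398), with TMM-normalized log2 changes of −0.75 in MKOC and −0.97 in TJ cells. Its partner subunit did not pass the test, and *Gclm* had a log2 fold change of −0.03 (SE 0.10, edgeR adjusted p = 0.852). The 2 subunits of the enzyme thus differed in their calls, and a difference between them was not tested.

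*Txnrd1* fell 1.40-fold (log2 −0.49, SE 0.10, edgeR adjusted p = 0.00342) and *Nqo1* 1.35-fold (log2 −0.44, SE 0.12, edgeR adjusted p = 0.0180). *Srxn1* (−0.20, SE 0.10, edgeR adjusted p = 0.162) and *Gsr* (−0.16, SE 0.13, edgeR adjusted p = 0.371) did not pass. The lines gave *Gsr* log2 changes of −0.45 (MKOC) and 0.12 (TJ) after TMM normalization, so the estimate averages opposite signs. Opposite signs in the 2 lines occurred in 22.6% of the 12952 genes.

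*Nfe2l2* rose 1.31-fold (log2 0.39, SE 0.12, edgeR adjusted p = 0.0285), by 0.58 in MKOC and 0.20 in TJ cells on the TMM-normalized log2 scale. The RNA of the regulator and that of 5 of the other genes therefore moved in opposite directions. *Cbs* was removed by the filter on low counts and has no test, and with 0 to 4 counts in a kidney library no change was detectable at this depth. Without the line as a covariate 3 genes were lower (*Cth*, *Hmox1* and *Gclc*) and 0 higher, and with DESeq2 *Nqo1* (adjusted p = 0.0743) and *Nfe2l2* (adjusted p = 0.0532) did not pass. In both lines *Tsc2* RNA was also lower with rapamycin, at 19.5 against 49.1 TPM in MKOC and 19.1 against 44.0 TPM in TJ cells, and the summed kidney epithelial markers were higher, at 1625 and 1819 TPM against 1108 and 1129.9 TPM, with 3 of 6 markers tested higher and 0 lower. Of the fibroblast markers 3 of 9 were higher and 0 lower, with sums of 7712 and 5399.7 TPM against 4815 and 3719 TPM, mostly *Vim*. The mesothelial markers summed to 151 and 98.5 TPM against 80.3 and 70.3 TPM, nearly all of it *Msln*, with 1 of 2 tested higher. The macrophage markers summed to 23.3 and 35.3 TPM against 18.6 and 33.4 TPM, with 1 of 2 tested higher. Whether these bear on the changes of the 10 genes was not tested.

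**Figure D3:**
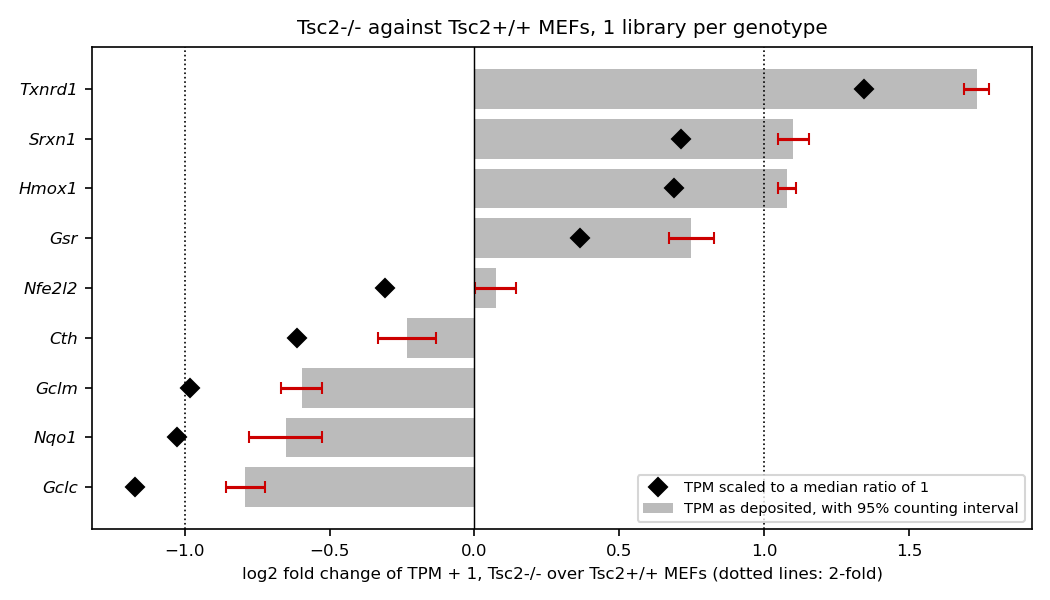
Log2 fold change of TPM + 1 in *Tsc2*-/- over *Tsc2*+/+ MEFs for the 9 genes with at least 10 TPM, with 1 library per genotype. Bars show TPM as deposited with 95% counting intervals, diamonds the same after scaling the pair to a median ratio of 1, and dotted lines 2-fold in either direction. *Txnrd1* was past 2-fold on both scales.

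In the MEFs, *Txnrd1*, *Srxn1* and *Hmox1* were higher in the *Tsc2*-/- than in the *Tsc2*+/+ library, and *Gclc*, *Nqo1* and *Gclm* were lower. With 1 library per genotype there is no replicate check and no p-value. The median TPM ratio over the 7377 genes with at least 10 TPM in both libraries was 1.31, a log2 shift of 0.39, so each value is also given relative to that shift (scaled). On the log2 (TPM + 1) scale, which understates changes of low genes, the values follow as deposited and then scaled.

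*Txnrd1* was 1.73 higher as deposited and 1.34 scaled, with a TPM ratio of 3.36 (3.26 to 3.46). *Srxn1* (1.10 and 0.71, TPM ratio 2.16, 2.08 to 2.24) and *Hmox1* (1.08 and 0.69, TPM ratio 2.11, 2.07 to 2.16) passed 2-fold only as deposited. *Gsr* was 0.75 higher as deposited and 0.36 scaled, but only 0.07 higher in CPM (counts scaled to a common library total, with no account of length). With its coding transcript ENSMUST00000033992 alone, which was chosen after the values were seen, the difference as deposited was 0.34. That is less than the log2 shift of 0.39 between the libraries. A noncoding transcript of *Gsr* took 7.81% of its counts in the *Tsc2*-/- library and 0.876% in the other MEF library.

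*Gclc* was at −0.79 and −1.17 (TPM ratio 0.573, 0.546 to 0.600), *Nqo1* at −0.65 and −1.03 (TPM ratio 0.630, 0.577 to 0.687) and *Gclm* at −0.60 and −0.98 (TPM ratio 0.659, 0.628 to 0.692). With single coding transcripts of *Gclm*, chosen after the values were seen, the difference as deposited was −0.87 (ENSMUST00000029769) and −0.31 (ENSMUST00000178826). *Gclc* and *Nqo1* passed 2-fold when scaled but not as deposited, and in CPM *Gclc* (−1.18), *Nqo1* (−1.01) and *Gclm* (−1.07) did. *Cth* was at −0.23 and −0.61, and *Nfe2l2* turned its sign with the scaling, at 0.07 as deposited and −0.31 scaled. *Cbs* was at 0.79 and 0.61, from 34 counts (0.958 TPM) in *Tsc2*-/- against 2 counts (0.131 TPM) in *Tsc2*+/+ MEFs. The 2 counts lie under the floor of 3, so the size of its difference is uncertain.

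As deposited, 3 of the 9 genes with at least 10 TPM were at least 2-fold higher and 0 were lower, beside 22.7% higher and 3.86% lower of all 9180 such genes. Scaled, 1 was higher and 2 were lower, beside 12.9% and 7.15%. Over all 30281 symbols, most of them at low levels, the shares were 10.6% higher and 2.19% lower as deposited, and 6.67% and 3.46% scaled. The 6 mesothelial markers, *Msln*, *Upk3b*, *Wt1*, *Upk1b*, *Lrrn4* and *Gpm6a*, were all higher in the *Tsc2*-/- library, from a sum of 2.66 to 478 TPM, and the summed kidney epithelial markers went from 0.197 to 77.9 TPM. *Krt19* (55.6 TPM) and *Krt18* (20.6 TPM) made up nearly all of that sum, while *Cdh1*, *Krt8*, *Cldn4*, *Pax8* and *Pax2* stayed at or under 0.477 TPM in the *Tsc2*-/- library. Their part in these differences was not tested.

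Set side by side, *Hmox1* and *Txnrd1* were higher in *Tsc2*-/- MEFs on both scales and lower with rapamycin in the kidney lines. *Gclc*, *Nqo1* and *Cth* were lower in both comparisons. Of the 6 genes called with rapamycin, 2 went the opposite way in the MEFs as deposited and 3 when scaled, beside 60.1% and 54.7% of the 3427 genes called with rapamycin that had at least 10 TPM in a MEF library.

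The comparison of the TJ with the MKOC line asks whether the tumor-derived line differs, with treatment as a covariate in the same fit. Mean TPM of *Txnrd1* was 86.8 in TJ and 109 in MKOC cells (log2 −0.35, SE 0.10, edgeR adjusted p = 0.0481), and it was the only one of the 9 genes to pass, where 3.32% of all genes tested were lower and 5.47% higher in TJ. *Txnrd1* did not pass with DESeq2, limma, upper-quartile scaling, DESeq2 size factors or without the treatment covariate. The remaining values ran from −0.40 for *Nqo1* (SE 0.12, edgeR adjusted p = 0.0672) to 0.37 for *Gsr* (SE 0.13, edgeR adjusted p = 0.121). The *Gsr* value averages 0.09 between the untreated libraries and 0.65 between the rapamycin libraries. *Gss*, glutathione synthetase, which completes glutathione, was higher in TJ cells (log2 0.68, edgeR adjusted p = 0.00401), at 92.0 against 58.1 TPM untreated. Of the markers tested in this fit, 1 of 2 macrophage markers was higher in TJ cells, and 1 of 2 mesothelial and 1 of 2 endothelial markers were lower. Of 9 fibroblast markers 1 was higher and 1 lower, and 0 of 6 kidney epithelial markers passed. Whether these bear on the 10 genes was not tested.

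Between the untreated kidney lines and the MEFs, *Gsr* was higher in the kidney lines, with a mean of 106 against 59.6 TPM (log2 0.92, SE 0.16, edgeR adjusted p = 0.0455). It was the only one of the 9 genes to pass, beside 4.74% of the 13473 genes tested that were higher and 5.2% that were lower. *Srxn1* had a log2 difference of −1.04 (SE 0.27, edgeR adjusted p = 0.0896), with means of 53.7 TPM in the kidney lines and 109 TPM in the MEFs. *Gclc* was at −1.03 (SE 0.48, edgeR adjusted p = 0.224), and its value rested on the MEF library used, at −0.22 without *Tsc2*+/+ and −1.53 without *Tsc2*-/- MEFs. *Cth* was at −0.11 (SE 0.32, edgeR adjusted p = 0.833). The *Gsr* call was lost without the MKOC library (adjusted p = 0.489) and without the TJ library (adjusted p = 0.515), fits in which 0% of all genes were called, and also with limma and without the filter on low counts. Cell type, line and in part *Tsc2* genotype cannot be told apart here, and the markers differed as the cell types do, with 5 of 7 kidney epithelial markers tested higher and 5 of 8 fibroblast markers lower in the kidney lines.

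The other genes of these pathways were taken as 8 lists of 131 genes, chosen by known role. Like the 10 genes, the lists were chosen with earlier results of these data known, so their shares are a description only. With rapamycin, 44 of the 117 tested were lower (37.6%) and 12 were higher (10.3%), with a median log2 fold change of −0.21, beside 17.4% and 17.5% of all genes tested. Without the line as a covariate 17 were lower and 3 higher. Glutathione synthesis and turnover had 7 of 11 lower and 1 higher, and NADPH supply, which feeds both reductases, had 4 of 6 lower and 0 higher. The thioredoxin and peroxiredoxin genes had 3 of 14 lower and 2 higher, and the superoxide and peroxide enzymes 1 of 4 each way.

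*Slc7a11*, the cystine importer, was lower with rapamycin (log2 −1.35, edgeR adjusted p = 8.19e-05), at 3.60 against 7.39 TPM in MKOC and 3.09 against 7.92 TPM in TJ cells. *Gss* was lower as well (log2 −0.78, edgeR adjusted p = 0.000531), and so was *Chac1*, which degrades glutathione (log2 −1.57, edgeR adjusted p = 1.68e-05, from 97.0 to 35.8 TPM in MKOC and from 89.3 to 27.5 TPM in TJ cells). Genes for import of cystine, for both steps of glutathione synthesis and for its breakdown were thus among those that fell. *Oplah*, 5-oxoprolinase, rose (log2 1.02, edgeR adjusted p = 0.000644).

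Among the genes that use glutathione, 10 of 31 were lower and 3 higher. The glutathione transferases *Gsta1* (log2 −2.04, edgeR adjusted p = 3.03e-05) and *Gsta4* (log2 −1.42, edgeR adjusted p = 0.000251) fell most, and alpha-class transferases are alike enough in sequence that reads may be shared between them. *Glrx*, glutaredoxin, rose 2.83-fold (edgeR adjusted p = 1.91e-05), from 16.1 to 44.4 TPM in MKOC and from 34.3 to 100.6 TPM in TJ cells. *Sod3*, the extracellular superoxide dismutase, rose too (log2 1.17, edgeR adjusted p = 5.64e-05).

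Of the detoxification and iron genes known as NRF2 targets, 8 of 22 were lower and 2 higher. Of the methionine cycle and cysteine genes, 7 of 17 were lower and 2 higher. Of the NRF2 regulators, 4 of 12 were lower and 1 higher, and neither *Keap1* (log2 0.18, edgeR adjusted p = 0.265) nor *Bach1* (log2 0.33, edgeR adjusted p = 0.0524) passed the test.

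**Figure D4:**
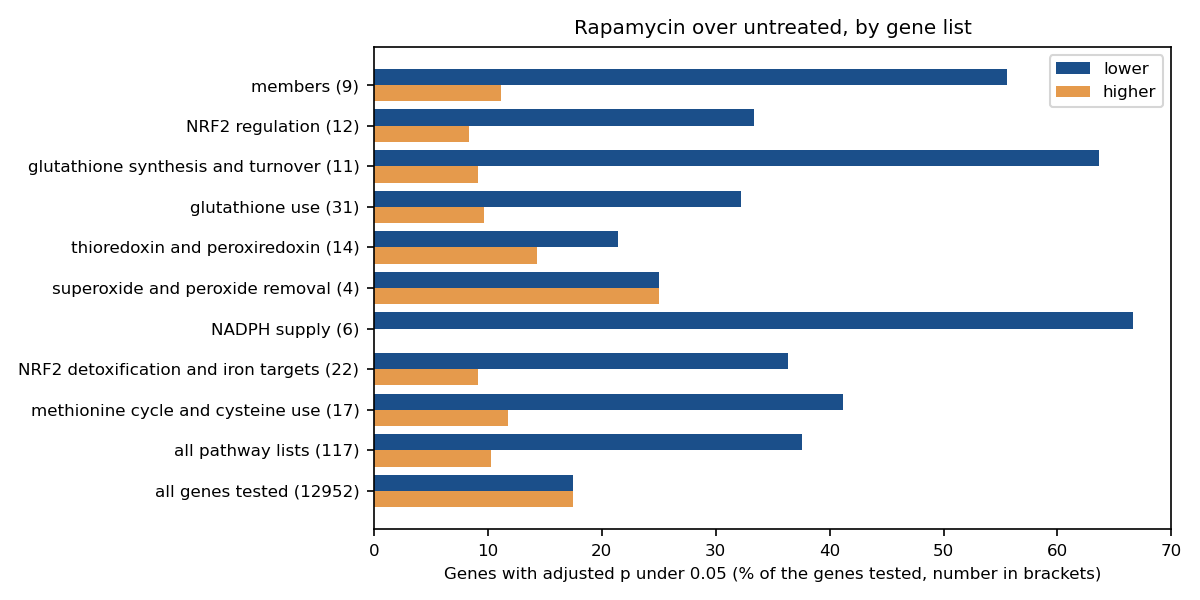
Share of the genes tested in each list that were lower (blue) or higher (orange) with rapamycin at an edgeR adjusted p under 0.05, as a percent of the genes tested, with their number in brackets. The 8 lists together (all pathway lists) stood at 37.6% lower and 10.3% higher, and all genes tested at 17.4% and 17.5%.

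In the MEFs, 31 of the 105 list genes with at least 10 TPM were at least 2-fold higher in the *Tsc2*-/- library and 6 were lower as deposited, and 17 were higher and 9 lower when scaled. As shares these were 29.5% and 5.71%, and 16.2% and 8.57% scaled, beside 22.7% and 3.86%, and 12.9% and 7.15% scaled, of all genes with at least 10 TPM. Their median log2 fold change was 0.45 as deposited and 0.06 scaled, beside 0.46 and 0.08 for all genes with at least 10 TPM. *Slc7a11* was higher in *Tsc2*-/- MEFs, at 26.2 against 7.46 TPM (log2 1.69 as deposited, 1.31 scaled). *Gsta4* was lower, at 582 against 3722.5 TPM (log2 −2.68 and −3.06). *Aldh1a1*, a retinaldehyde dehydrogenase, had 114 against 0.0852 TPM, while *Gss* and *Bach1* differed by 0.14 and 0.09 as deposited and by −0.24 and −0.28 scaled.

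The genes with a pattern most like that of *Cth*, the gene of widest range among the 10, were *Wdr61*, *Hspd1*, *D19Bwg1357e*, *Mrpl47* and *Slc7a5*, of 10114 genes compared. Their Pearson correlations of log2 (TPM + 1) with *Cth* over the 6 libraries were between 0.991 and 0.995, as a description of libraries that share lines and that split into 2 with and 4 without rapamycin. *Slc7a5*, a carrier of large neutral amino acids, had 86.1 and 89.5 TPM in both rapamycin libraries and between 191 and 209 TPM in the 4 others. *Wdr61* changed far less in size, with 62.5 and 65.7 TPM against 78.4 to 81.0 TPM.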

How the data were processed

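RNA was measured in 6 mouse libraries made with a stranded mRNA kit. The authors trimmed reads with Trimmomatic and ran Kallisto. The methods of the study name the hg38 human transcriptome, whereas the deposited identifiers are Ensembl mouse transcripts. The authors deposited, for 88198 transcripts, estimated counts per library, TPM, lengths and effective lengths. The authors' deposited fold change, a ratio of TPM between the MEFs, was not used, and only the symbols were read from its table. Transcripts without a symbol (1006, 0.372% to 0.468% of the counts) were left out, 8 transcripts with 2 symbols were given the first, and Kallisto divides reads that fit several transcripts. The number of sample columns left unmapped was 0.

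Estimated counts, summed per symbol and rounded, passed the filter filterByExpr and TMM normalization, and the quasi-likelihood test of edgeR followed, with p-values adjusted over all genes after Benjamini and Hochberg (threshold 0.05). The fit for rapamycin had the cell line as a covariate, or block. The labels give every library's line, which is where the pairing comes from, and deviations from the treatment means had a correlation of 0.562 within a line over 12952 genes. Fold changes between the MEFs used TPM with 1 added and a threshold of 2-fold. Floors were 3 counts, and intervals were 95% Wilson intervals, or intervals of a ratio of counts. The mitochondrial transcript mt-Atp8 held 17.5% of TPM in the *Tsc2*+/+ and 4.79% in the *Tsc2*-/- MEF library. In the kidney lines it held 1.5% untreated and 4.58% with rapamycin in MKOC, and 2.95% and 5.14% in TJ cells. Such shares move TPM between libraries, and the MEF comparison was therefore also scaled to a median ratio of 1.

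The genes named are the 10 genes in every comparison, the partner genes *Keap1*, *Bach1*, *Slc7a11* and *Gss*, the list genes with the 3 largest rises and falls past the threshold with at least 10 TPM in a library, and the 5 genes most like the member of widest range. Members and lists were chosen with earlier results of these data known, and 1 further kidney epithelial marker is not reported here. Alternatives were DESeq2, limma on log2 (TPM + 1), other normalizations, no filter, no covariate, other pseudocounts (0.1, 0.5 and 5 TPM), CPM, a threshold of 1.5-fold and leaving out single libraries, and single transcripts of *Gsr* and *Gclm* were added after the data were seen. The models were tested on simulated data. Tools were R 4.3.3 with DESeq2 1.42.0, limma 3.58.1 and edgeR 4.0.16, and Python 3.11.15 with matplotlib 3.10.9, scipy 1.17.1, pandas 2.3.3 and numpy 2.4.6.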

Additional observations from a re-analysis of the deposited data

Results flagged for a closer look

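*Gsr* and *Gclm*, neither of which passed the rapamycin test, each had a log2 value of opposite sign in the 2 kidney lines. On the log2 (TPM + 1) scale as deposited *Gsr* was at −0.52 in MKOC and at 0.30 in TJ cells, and *Gclm* at −0.08 in MKOC and at 0.11 in TJ cells. For *Gclm* the 95% counting interval of the MKOC ratio, 0.892 to 1.01, included 1, the TMM-normalized values were −0.07 and 0.00, and with TPM scaled to a common median the values were 0.0021 and 0.21, both positive. For *Gsr* the scaled values were −0.45 and 0.41. With 1 library per line and treatment, the difference between the lines was not tested. With the coding *Gsr* transcript ENSMUST00000033992 alone, an alternative chosen after the data were seen, the *Gsr* values were −0.40 and 0.07. With the *Gclm* transcript ENSMUST00000029769 alone they were −0.06 and −0.02, and with ENSMUST00000178826 they were −0.14 and −0.07, so both *Gclm* transcripts had the same sign in both lines.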

How the results depend on the processing

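The calls for *Cth*, *Hmox1* and *Gclc* with rapamycin passed in each alternative run. Without the replicate block (the cell line), 0 of the 10 genes were higher and 3 lower, against 1 and 5 with it, and of the list genes 3 were higher and 17 lower, against 12 and 44. With DESeq2 0 were higher. *Gclm*, which did not pass, turned its sign to 0.0157 with limma and to 0.0045 with upper-quartile scaling.

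For TJ against MKOC, 0 of the 10 genes were lower with DESeq2, limma, upper-quartile scaling, DESeq2 size factors or no treatment covariate, and without the filter on low counts 2 were lower and 1 higher. Leaving out a line (for rapamycin) or a treatment (for the lines) leaves values with no test, so no count of calls was made.

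For the kidney lines against the MEFs, 0 were higher with limma and without the filter, and 1 was lower with DESeq2. Leaving out 1 library leaves a lone library in its group, which is then assumed to vary like the other pair. Calls among the 10 genes in those fits are therefore not counted here, and only the sizes of the differences are given. Values ranged over the left-out libraries from −0.90 to 0.27 for *Nqo1*, −1.18 to 0.03 for *Gclm*, −0.79 to 0.45 for *Txnrd1*, −1.53 to −0.22 for *Gclc* and −0.42 to 0.31 for *Cth*, positive without *Tsc2*+/+ MEFs (*Nqo1* 0.27, *Gclm* 0.0329, *Cth* 0.31), without *Tsc2*-/- MEFs (*Txnrd1* 0.45) or without the TJ library (*Cth* 0.0659). With limma *Gclm* was at 0.0824 and *Cth* at 0.0161. None of these 5 genes had passed with all libraries.

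In the MEFs, scaling left 1 higher and 2 lower of the 10 genes, CPM gave 2 higher and 3 lower, and 1.5-fold gave 5 higher and 3 lower, against 3 and 0. Of all 131 list genes, with no minimum TPM, 36 were higher and 8 lower, with 21 higher when scaled and 5 lower with a pseudocount of 5 TPM. The cause of these shifts was not tested, apart from the scaling and thresholds themselves. With 1 library per genotype and 1 per line and treatment, the spread between cultures is unknown, and a change of *Cbs* in the kidney lines is under what 3 counts can show.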

Other observations

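Some list genes differed between the kidney lines. In TJ cells *Gstt1*, a theta-class glutathione transferase, was higher than in MKOC cells (log2 1.22, edgeR adjusted p = 0.00162), at 89.0 against 48.8 TPM untreated and 135 against 45.2 TPM with rapamycin. *Gpx3*, the secreted glutathione peroxidase, was higher too (log2 1.20, edgeR adjusted p = 0.00900), and so was *Glrx* (log2 1.12, edgeR adjusted p = 0.000321). The aldo-keto reductase *Akr1c13* was lower in TJ cells (log2 −1.59, edgeR adjusted p = 0.000189), as were *Sqrdl*, the mitochondrial enzyme that oxidizes hydrogen sulfide (log2 −0.91, edgeR adjusted p = 0.000806), and *Prdx4*, the peroxiredoxin of the endoplasmic reticulum (log2 −0.47, edgeR adjusted p = 0.0268). Of the 117 list genes tested, 10 were higher (8.55%) and 5 lower (4.27%) in TJ cells, beside 5.47% and 3.32% of all genes tested.

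Against the MEFs, the untreated kidney lines were higher in *Ahcy*, which splits S-adenosylhomocysteine and so supplies homocysteine, with 260.0 TPM in MKOC and 229.6 TPM in TJ cells against 40.6 TPM in *Tsc2*+/+ and 6.93 TPM in *Tsc2*-/- MEFs. The fit to estimated counts (12282 and 9582 in MKOC and TJ, 516 and 205 in *Tsc2*+/+ and *Tsc2*-/- MEFs) gave a log2 difference of 5.11 (edgeR adjusted p = 0.0156), larger than the log2 ratio of the mean TPM, 3.37, so the size depends on the scale. *Gstt1* (log2 3.25, edgeR adjusted p = 0.0320) and *Gstt2* (log2 6.22, edgeR adjusted p = 0.0359) were higher as well. The carbonyl reductases *Cbr1* (log2 −6.14, edgeR adjusted p = 0.0291) and *Cbr3* (log2 −4.51, edgeR adjusted p = 0.0335) and the repressor *Bach1* (log2 −1.76, edgeR adjusted p = 0.0376) were lower. In the MEFs *Mgst2* had 71.8 TPM in the *Tsc2*+/+ and 10.4 TPM in the *Tsc2*-/- library, *Akr1c13* had 16.4 and 0.509 TPM, *Gpx7* had 0.0579 and 18.7 TPM, and *Gstk1* had 0.0432 and 14.2 TPM.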
